A study of Mus musculus with 13 samples.

Results

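Protocadherins are the largest group of the cadherin superfamily. The count table held 36 rows whose gene symbol starts with Pcdh, of 35972 rows in all. They comprise 1 gene of the alpha cluster (Pcdha3), 22 genes of the beta cluster (Pcdhb1 to Pcdhb22) and 13 rows for 12 genes that stand alone in the genome. Pcdh15 has 2 rows, of which the second, whose identifier was not in the gene name table, held 0 counts in all 10 libraries. No row with a gamma-cluster symbol was found by this rule, so gamma genes and the other alpha genes were not analysed here. The rule uses gene names alone.

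Protocadherins are transmembrane proteins that bind copies of themselves on the neighbouring cell. In the alpha and gamma clusters each gene joins its own variable exon to constant exons shared by the whole cluster, whereas each beta gene is a single exon with no shared part. Single neurons use different sets of clustered genes, chosen by promoter methylation and by loops held by CTCF and cohesin, and these sets serve neurite self-recognition, tiling and synapse formation. The single genes fall mainly into the delta-1 group (Pcdh1, Pcdh7, Pcdh9, Pcdh11x) and the delta-2 group (Pcdh8, Pcdh10, Pcdh17, Pcdh18, Pcdh19), which are expressed in regional and laminar patterns in the developing cortex and take part in axon growth, cell sorting and synapse remodelling. Several delta-2 proteins bind the WAVE complex, a driver of actin assembly.

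The series addresses which genes Fezf2, a zinc-finger transcription factor of deep-layer projection neurons and their progenitors, regulates in the mouse neocortex. Fezf2 + GFP (5 libraries) and GFP alone (3 libraries) were electroporated in utero at E16.5 (embryonic age in days) into CD-1 mice, and the fluorescent cells were collected by sorting 3 days after birth. The neocortex RNA was from newborn C57BL6/J mice (postnatal day 0), with 1 library labelled Fezf2 knockout, where Emx1-cre was used to remove a floxed Fezf2 allele in progenitors, and 1 labelled wild type. Emx1-cre acts in the dorsal telencephalon, so cells that migrate in from elsewhere keep the gene. The labels do not say whether animals were pooled or whether sorted-cell libraries came from separate litters, so p-values measure only the spread between these samples, which may in part be technical.

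Total counts were 3245932 to 5801839 in the sorted-cell libraries, 17856211 in the library labelled knockout and 11818437 in wild type. Protocadherin rows took 3886 to 7590 counts per sorted-cell library and 18722 and 13861 counts in the neocortex libraries. Levels are given as CPM, counts scaled to the library total, with TMM factors that correct for differences in RNA composition. Fezf2 itself stood at 3.54 to 12 CPM in the GFP libraries and 85.1 to 151 CPM in the Fezf2 libraries, and at 53.5 CPM in the library labelled knockout and 51.4 CPM in wild type. Fezf2 was thus not lower in the library labelled knockout, and a whole-gene count does not show loss of some exons, so directions in the neocortex pair rest on the label. The glutamatergic neuron genes fixed as markers were present in every library, at a summed 5494 to 5747 CPM with GFP and 3332 to 6044 CPM with Fezf2. Their median log2 fold change, Fezf2 over GFP, was −0.34, with 1 of 10 above 0. The meningeal list summed to 3.76 to 16.9 CPM in sorted cells, and the blood vessel list to 52.2 to 196 CPM, with the pericyte gene Rgs5 at 17.7 to 116 CPM and the endothelial gene Cldn5 at 0 to 2.60 CPM.

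In sorted GFP cells 4 single genes had the highest levels per kilobase, Pcdh9, Pcdh7, Pcdh8 and Pcdh10, and most beta-cluster genes were present at lower levels. Levels of different genes are compared per kilobase (CPM per kb), with the length implied by the deposited RPKM of the neocortex libraries. In GFP cells Pcdh9 led at 53.9 ± 1.22 CPM per kb (SD, n = 3). Pcdh7 and Pcdh8 followed at 20.7 ± 3.61 and 20.1 ± 1.91, and their ranges overlapped. Pcdh10, Pcdh17 and Pcdh1 stood at 13.9 ± 2.94, 9.57 ± 2.43 and 7.92 ± 0.825 CPM per kb. Pcdh19, Pcdh15 and Pcdh11x formed a lower tier at 5.05 ± 0.357, 4.24 ± 0.837 and 3.65 ± 1.40, and Pcdh18 and Pcdh20 stood at 2.47 ± 0.523 and 2.00 ± 0.671. Of the 34 pairs of neighbours in the order of all members, 30 overlapped in their GFP ranges. For the lengths used, the order is thus firm only at a few steps, such as that below Pcdh9. The implied length of Pcdh15, 22023 bases, is the longest of the members, and a level per kb falls with the length used. Pcdh9 and Pcdh8 had 3728 and 4010 bases, and Pcdh10 and Pcdh17 had 10686 and 9545. Without length, Pcdh9 averaged 201 CPM in GFP cells and Pcdh10 149. Pcdh8, at 80.6 CPM, was below Pcdh15 at 93.3 and Pcdh17 at 91.3.

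In whole neocortex at birth the order differed. Pcdh8 was highest in wild type at 38.4 CPM per kb, followed by Pcdh10 at 16.8, Pcdh9 at 16.3, Pcdh19 at 16.2, Pcdh7 at 14.1 and Pcdh17 at 12.9. Pcdh9 was thus 3.31 times higher per kb in GFP cells than in wild-type neocortex, and Pcdh19 stood at 5.05 in GFP cells against 16.2 in wild-type neocortex. Strain, age, cell source and library kit all differ between these samples and cannot be told apart, so the values are set side by side without a test.

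No protocadherin passed the test between Fezf2 and GFP cells. Of the 36 rows, 33 passed the low-count filter, and 0 of these 33 passed edgeR's quasi-likelihood test after Benjamini-Hochberg adjustment over all 13754 genes tested, among which 2 passed (0.0145%). DESeq2 also called 0 members. At an unadjusted p under 0.05 edgeR gave 3 of 33 members (9.09%), against 6.55% of all genes (4.31% higher and 2.24% lower in Fezf2 cells). These were Pcdh19 and Pcdh15 with higher means and Pcdh8 with a lower mean in Fezf2 cells, all single genes, and DESeq2 gave the same 3 members. The groups did not overlap for 1 of 33 members, Pcdh19, against 4.71% of all genes (2.25% higher and 2.46% lower in Fezf2 cells). With so few members called, these shares give no result about the protocadherins as a group. The log2 fold change was below 0 for 14 of 33 members, and for 47.1% of all genes. The median log2 fold change was 0.06 over the 33 members, 0.22 over the 11 single genes tested, 0.01 over the 21 beta genes tested and 0.02 over all genes. The beta median rested on single libraries: it was −0.23 without Fezf2 replicate 1, −0.11 without GFP replicate 3, and 0.20 with a covariate for astrocyte markers that was chosen after seeing the data.

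**Figure D1:**
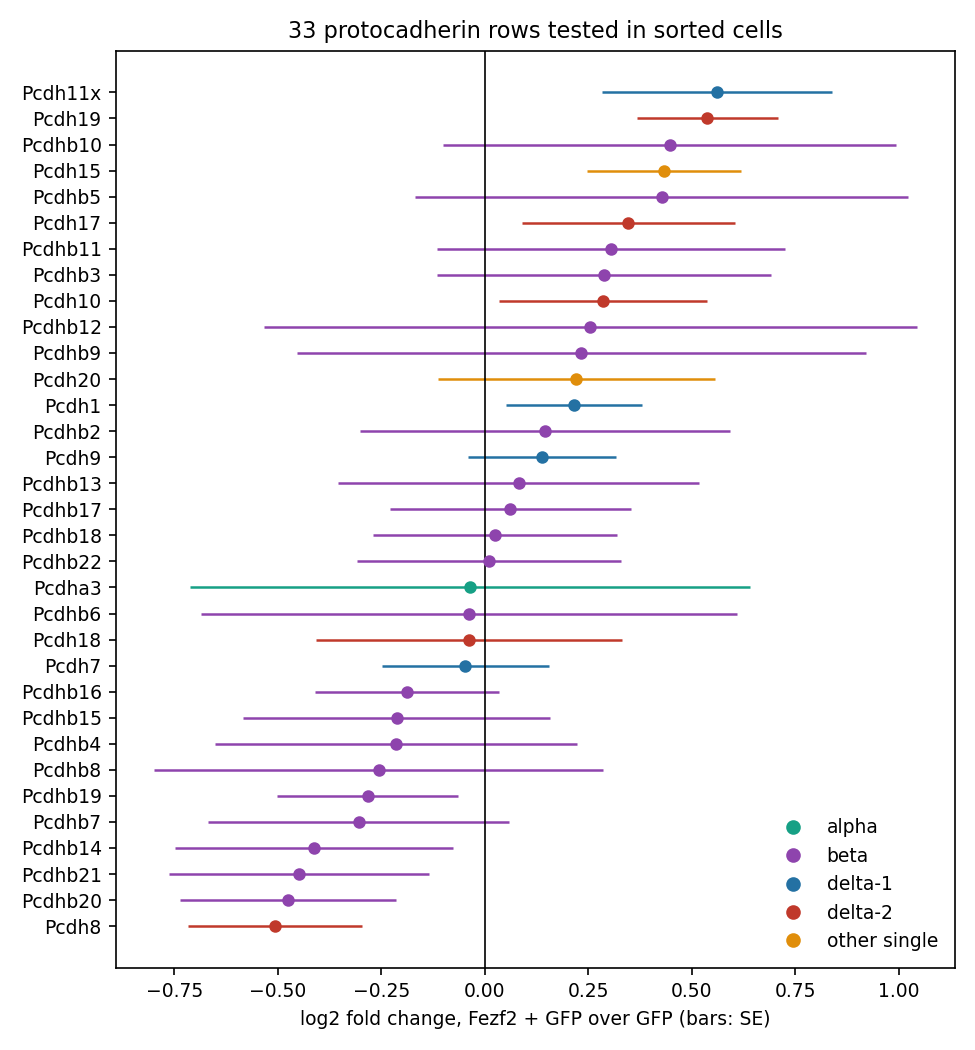
The log2 fold change of each of the 33 tested protocadherin rows (x axis, Fezf2 + GFP over GFP, bars are 1 SE) is ordered by size (y axis) and coloured by group. Values run from −0.51 for Pcdh8 to 0.56 for Pcdh11x, and no row passed after adjustment over all genes.

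Promoter sequence was printed for 4 delta-2 genes, because Pcdh18, Pcdh19 and Pcdh10 had the lowest ratios of the delta-2 group in the neocortex pair and Pcdh8 was its member with a ratio above 0. Each line gives the 250 bases before the annotated start, 5′ to 3′ on the gene's strand, from RefSeq's annotation of GRCm38.p6, with every CG pair in capitals. The windows are chrX:133688994-133689243 (minus strand), chr3:49757317-49757566 (minus strand), chr3:45378148-45378397 (plus strand) and chr14:79771313-79771562 (minus strand).
Pcdh19: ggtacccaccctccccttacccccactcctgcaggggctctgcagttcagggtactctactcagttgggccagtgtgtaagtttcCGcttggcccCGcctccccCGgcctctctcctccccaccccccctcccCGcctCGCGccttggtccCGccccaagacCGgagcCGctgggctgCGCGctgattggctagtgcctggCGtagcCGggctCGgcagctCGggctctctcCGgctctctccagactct
Pcdh18: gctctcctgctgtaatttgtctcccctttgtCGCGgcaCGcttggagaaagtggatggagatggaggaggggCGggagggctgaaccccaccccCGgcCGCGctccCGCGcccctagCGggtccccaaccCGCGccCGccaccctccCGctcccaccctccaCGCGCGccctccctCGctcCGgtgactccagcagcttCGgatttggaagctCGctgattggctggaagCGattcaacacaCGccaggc
Pcdh10: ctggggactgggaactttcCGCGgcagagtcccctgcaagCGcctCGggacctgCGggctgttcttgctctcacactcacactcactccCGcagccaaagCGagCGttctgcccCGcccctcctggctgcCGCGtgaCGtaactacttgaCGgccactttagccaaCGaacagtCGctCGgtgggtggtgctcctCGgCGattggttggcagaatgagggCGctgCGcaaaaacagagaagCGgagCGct
Pcdh8: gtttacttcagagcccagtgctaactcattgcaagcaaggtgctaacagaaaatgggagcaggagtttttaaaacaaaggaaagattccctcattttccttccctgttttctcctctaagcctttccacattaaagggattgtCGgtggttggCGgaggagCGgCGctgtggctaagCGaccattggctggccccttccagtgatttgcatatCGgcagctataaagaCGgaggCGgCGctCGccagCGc
Pcdh18, Pcdh10 and Pcdh19 held 23, 22 and 16 CG pairs in 250 bases, more than 86.7%, 85.2% and 74.6% of 32851 annotated windows, whose median was 6. Pcdh17, the other delta-2 gene, had 21 CG pairs and a near-even neocortex ratio of −0.13. The delta-1 gene Pcdh9 had 18 CG pairs, more than 78.3% of windows, and a ratio of −0.18. Over the 10 windows of single protocadherins the median was 17, so many CG pairs are not particular to the genes with low ratios. Pcdh8 held 11, and had TATAAA beginning 30 bases before the start. TATAAA on either strand was present in 12.4% of all windows and in 2 of 10 windows of 9 single protocadherins, the other being Pcdh15 at 33 bases. Windows on the chromosome of the gene clusters were left out, and Pcdh1, Pcdh11x and Pcdh12 are not among these 9 genes. A match or its absence describes these letters alone. Binding of Fezf2 at these windows was not examined, since the deposited peaks are in mm9 coordinates.

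Among the delta-2 genes, Pcdh19 differed most between Fezf2 and GFP cells by unadjusted p. Pcdh19, an X-linked adhesion protein whose human mutations cause epilepsy in females, had 51.3, 56.2 and 48.9 CPM in GFP replicates 1 to 3 and 61.0, 77.0, 82.9, 81.2 and 76.4 CPM in Fezf2 replicates 1 to 5. All 5 Fezf2 libraries lay above all 3 GFP libraries, with replicate 1 nearest to them. The log2 fold change was 0.54 (SE 0.17, edgeR adjusted p = 0.729), and the adjusted p was 0.253 to 0.999 over the alternatives tried.

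Pcdh8, whose activity-induced form (arcadlin) removes N-cadherin from synapses, had 74.2, 89.1 and 78.4 CPM in the GFP libraries and 47.5, 39.6, 80.4, 60.4 and 55.3 CPM in the Fezf2 libraries. Fezf2 replicate 3 lay within the GFP range and the other 4 below it. The log2 fold change was −0.51 (SE 0.21, edgeR adjusted p = 0.729).

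Pcdh10 and Pcdh17, which act in axon outgrowth and bind the WAVE complex, spread more widely. Pcdh10 had 168, 166 and 113 CPM with GFP and 99.1, 173, 154, 268 and 215 CPM with Fezf2. Fezf2 replicates 2, 4 and 5 were above the GFP range, replicate 2 by little, and replicate 1 was below it, and the log2 fold change was 0.29 (SE 0.25, edgeR adjusted p = 0.852). Pcdh17 had 109, 99.6 and 65.2 CPM with GFP and 86.1, 146, 66.0, 145 and 139 CPM with Fezf2, so that replicates 2, 4 and 5 were above the GFP range and replicates 1 and 3 within it (log2 fold change 0.35, SE 0.26, edgeR adjusted p = 0.83). Without GFP replicate 3 the log2 fold change was 0.12 for Pcdh10 and 0.15 for Pcdh17, and without Fezf2 replicate 4 it was 0.10 and 0.25. Pcdh18, the least abundant delta-2 gene, averaged 12.8 ± 2.72 CPM (SD, n = 3) with GFP and 12.4 ± 5.01 CPM (SD, n = 5) with Fezf2. Its log2 fold change was −0.04 (SE 0.37).

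The delta-1 genes, which share a longer extracellular part and a binding site for protein phosphatase 1, had overlapping groups, and 0 of 4 had an unadjusted p under 0.05. Pcdh11x, also X-linked, had 47.3, 22.3 and 30.1 CPM with GFP and 29.2, 54.6, 44.9, 61.2 and 56.6 CPM with Fezf2. Replicates 2, 4 and 5 lay above the GFP range, replicates 1 and 3 within it. Its log2 fold change of 0.56 was the highest of all members (SE 0.28, edgeR adjusted p = 0.778). GFP replicate 1 and Fezf2 replicate 5 were the libraries with high Xist, at 5134 and 5098 CPM against 17.7 to 25.3 in the other sorted-cell libraries, and GFP replicate 1 was the highest GFP library for Pcdh11x. Without GFP replicate 1 the log2 fold change of Pcdh11x was 0.91, and without GFP replicate 2 it was 0.34. With a term for high Xist it was 0.69 for Pcdh11x and 0.54 for Pcdh19.

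Pcdh1 averaged 67.2 ± 7.0 CPM (SD, n = 3) with GFP and 78.0 ± 8.14 CPM (SD, n = 5) with Fezf2, which gave 0.22 (SE 0.16) on the log2 scale. All 5 Fezf2 libraries lay above the GFP mean for Pcdh1, but the groups overlapped. Pcdh9 had 205, 202 and 196 CPM in GFP cells and 269, 263, 195, 150 and 231 CPM in Fezf2 cells. The GFP libraries sat close together and inside the Fezf2 range, and the log2 fold change was 0.14 (SE 0.18). For Pcdh7 the means were 129 ± 22.5 CPM (SD, n = 3) and 125 ± 34 CPM (SD, n = 5), and the log2 fold change was −0.05 (SE 0.20).

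Of the remaining single genes, Pcdh15, the tip-link protein of hair cells, which is also present in oligodendrocyte precursors, had 96.4, 73.5 and 110 CPM with GFP and 99.7, 148, 105, 130 and 147 CPM with Fezf2. Replicates 2, 4 and 5 were above the GFP range. The log2 fold change was 0.43 (SE 0.19, edgeR adjusted p = 0.739). The summed CPM of 11 oligodendrocyte lineage markers was 708 to 940 with GFP. It was 872, 1192, 828, 1939 and 1297 in Fezf2 replicates 1 to 5. Replicates 2, 4 and 5 thus led in those markers, as they did in the astrocyte, radial glia and vessel lists. The part of oligodendrocyte lineage markers in the Pcdh15 values was not tested. With the astrocyte covariate, chosen after seeing the data, the log2 fold change of Pcdh15 was 0.22. Pcdh20 averaged 10.5 CPM in GFP and 12.3 CPM in Fezf2 libraries (log2 fold change 0.22, SE 0.33), with overlapping groups. Pcdh12, a protocadherin of blood vessels, did not pass the filter. It had 0, 0.753 and 0 CPM with GFP and 2.06, 3.17, 0, 2.31 and 0 CPM with Fezf2, and the summed vessel markers ran from 52.2 to 66.5 CPM with GFP and from 54.3 to 196 CPM with Fezf2.

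**Figure D2:**
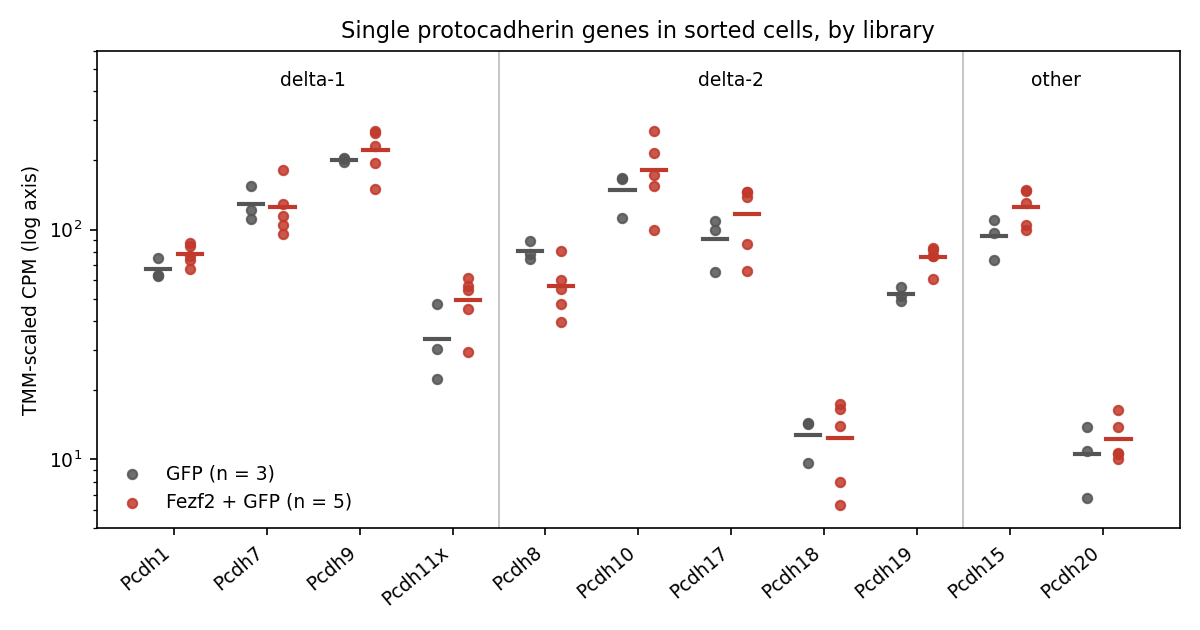
Points are single libraries and short lines group means of TMM-scaled CPM (log axis) for the 11 single protocadherins that passed the filter, GFP in grey (n = 3) and Fezf2 + GFP in red (n = 5). Pcdh19 is the gene whose groups do not overlap, with 48.9 to 56.2 CPM against 61.0 to 82.9 CPM.

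In the beta cluster a stretch near its end carried the highest levels. Per kb in GFP cells, Pcdhb17 was highest at 11.7 ± 0.374 CPM per kb and Pcdhb16 next at 9.10 ± 0.47 (SD, n = 3). Pcdhb20, Pcdhb14, Pcdhb15, Pcdhb18 and Pcdhb19 stood at 5.16 to 6.55 CPM per kb. Pcdhb1, at the start of the cluster, was lowest at 0.0636 ± 0.0601 CPM per kb with 0 to 6 counts per sorted-cell library, and it did not pass the filter. Pcdhb6 was next lowest at 1.15 ± 0.746 CPM per kb. Across the 22 genes the level per kb and the gene number, which follows position in the cluster, had a Spearman's rho of 0.66 in GFP cells and 0.59 in wild-type neocortex. The genes share libraries, neighbourhood and sequence, so these are descriptions. Because beta genes resemble each other, their counts are uncertain where reads match several copies.

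**Figure D3:**
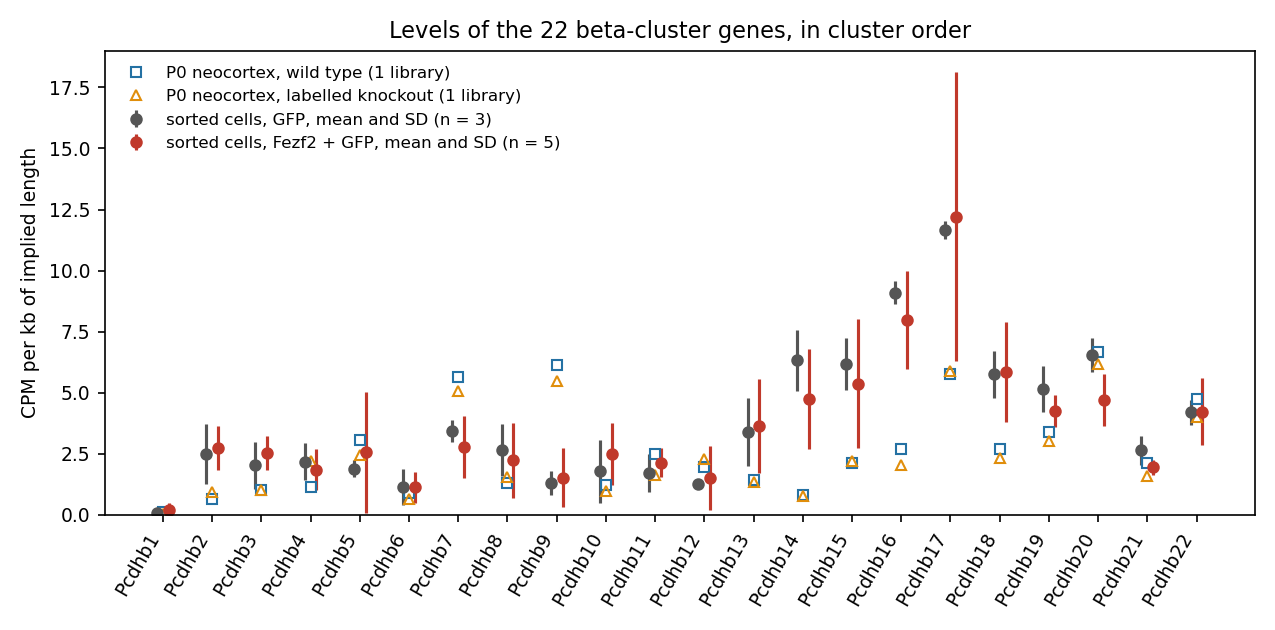
Levels of the 22 beta genes (y axis, CPM per kb of implied length) are shown in cluster order (x axis). Filled circles are means of sorted cells with bars of 1 SD, grey for GFP (n = 3) and red for Fezf2 + GFP (n = 5), and open marks are single neocortex libraries. Pcdhb17 is highest in sorted cells at 11.7 and 12.2, and the red bar is wide there, with Fezf2 replicate 1 at 22.7 CPM per kb.

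The order of the beta genes was much alike in Fezf2 and GFP cells and in both neocortex libraries, and less alike between sorted cells and neocortex. Spearman's rho over the 22 genes was 0.93 between the GFP and Fezf2 means and 0.94 between the library labelled knockout and wild type. Between GFP cells and wild-type neocortex it was 0.43, over 22 genes that share libraries. Pcdhb9 ranked 2 of 22 in wild-type neocortex at 6.15 CPM per kb and 19 in GFP cells at 1.30. Pcdhb14 ranked 4 in GFP cells at 6.32 CPM per kb and 20 in wild-type neocortex at 0.834. Pcdhb16 stood at 9.10 CPM per kb in GFP cells and 2.69 in wild-type neocortex, and Pcdhb7 at 3.44 and 5.65. The 4 most counted beta genes of a library took 43.3% to 53.4% of its beta counts in sorted cells and 40.6% and 39.8% in the neocortex libraries.

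Of the 21 beta genes tested in sorted cells, 11 had a log2 fold change above 0 and 10 below, and 0 had an unadjusted p under 0.05. Without Fezf2 replicate 1 their median was −0.23, and without Fezf2 replicate 3 Pcdhb20 had an unadjusted p under 0.05. Pcdhb20 was the nearest, with 22.2, 21.6 and 26.2 CPM in GFP and 16.2, 14.8, 23.0, 13 and 17 CPM in Fezf2 libraries. Fezf2 replicate 3 lay in the GFP range and the other 4 below it (log2 fold change −0.48, SE 0.26, edgeR adjusted p = 0.796). Pcdhb21, Pcdhb14 and Pcdhb19 had log2 fold changes of −0.45 (SE 0.31), −0.41 (SE 0.34) and −0.28 (SE 0.22). Pcdhb10 and Pcdhb5 were at the other end, at 0.45 (SE 0.55) and 0.43 (SE 0.60). Pcdha3, the alpha member, had 2.11, 3.76 and 3.54 CPM with GFP and 4.13, 1.06, 6.34, 2.02 and 1.55 CPM with Fezf2, a log2 fold change of −0.04 (SE 0.68) on 4 to 27 counts per library. How reads of the shared constant exons were assigned is not stated in the labels, and the implied length of the Pcdha3 row was 2448 bases.

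Individual beta genes spread widely between libraries of a group. The biological coefficient of variation, the spread between samples beyond counting error as edgeR estimates it per gene, had a median of 35.9% over the 21 beta genes, 21.3% over the 11 single genes and 28.0% over all genes. Against the trend for genes of their abundance, 11 of 21 beta genes (52.4%) and 7 of 11 single genes (63.6%) were above, as were 36.5% of all genes. Pcdhb12 and Pcdhb9 had the widest spread of the members, at 69.9% and 60.2%. Pcdhb12 had 21, 15 and 14 counts in the GFP libraries and 32, 2, 29, 1 and 23 in Fezf2 replicates 1 to 5. Pcdhb9 had 22, 10 and 19 counts with GFP and 32, 3, 30, 5 and 18 with Fezf2. Both genes thus had 1 to 5 counts in Fezf2 replicates 2 and 4 and 10 or more in the other 6 libraries. In the deposited RPKM, Pcdhb12 stood at 0.0947 and 0.0846 in those 2 libraries and at 0.380 to 1.08 in the others.

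Fezf2 replicate 1 carried more beta transcript than the rest. Pcdhb17 had 74.6 CPM there, against 29.4 to 34 in the other Fezf2 libraries and 36.9 to 39.2 in GFP libraries. Pcdhb5 had 24.2 CPM there and 2.35 to 8.97 in the other 7 libraries. In contrast, Pcdhb18 was lowest there, at 14.2 CPM against 23.6 to 41.9 in the others. Its share of the beta counts was 3.55% in Fezf2 replicate 1 and 15.1% in replicate 2.

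Summed over all 22 genes, beta transcript stood at 343, 324 and 306 CPM with GFP and 399, 277, 304, 247 and 288 CPM in Fezf2 replicates 1 to 5. Summed delta-2 transcript stood at 413, 425 and 320 CPM with GFP and 302, 450, 390, 572 and 502 CPM with Fezf2. Within the Fezf2 group the libraries with less beta transcript had more delta-2 transcript, except that replicate 2 was below replicate 5 in both. The 12 astrocyte markers summed to 1316, 967 and 944 CPM with GFP and 742, 2660, 1260, 3728 and 2620 CPM with Fezf2. The Fezf2 libraries in order of rising astrocyte markers were thus in order of falling beta transcript. The GFP libraries did not share this order, as astrocyte markers and beta transcript both fell from replicate 1 to replicate 3. Radial glia markers, 11 genes, ran from 3979 to 5133 CPM with GFP and were 3971, 7371, 4055, 9557 and 6714 CPM with Fezf2. The 10 glutamatergic neuron markers summed to 5506, 5747 and 5494 CPM with GFP and 6044, 4448, 4989, 3332 and 4088 CPM with Fezf2. At an unadjusted edgeR p under 0.05, 3 of these 10 were lower and 0 higher, where 2.24% of all genes were lower. After adjustment 0 passed. The part of neuron or glial markers in the beta sums was not tested. In bulk samples fewer cells of a type and less RNA per cell cannot be told apart. With the astrocyte sum as a covariate, chosen after seeing the data, the log2 fold change was 0.44 for Pcdh19 (edgeR adjusted p = 0.559), −0.45 for Pcdh8, 0.14 for Pcdh11x and −0.23 for Pcdh10.

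**Figure D4:**
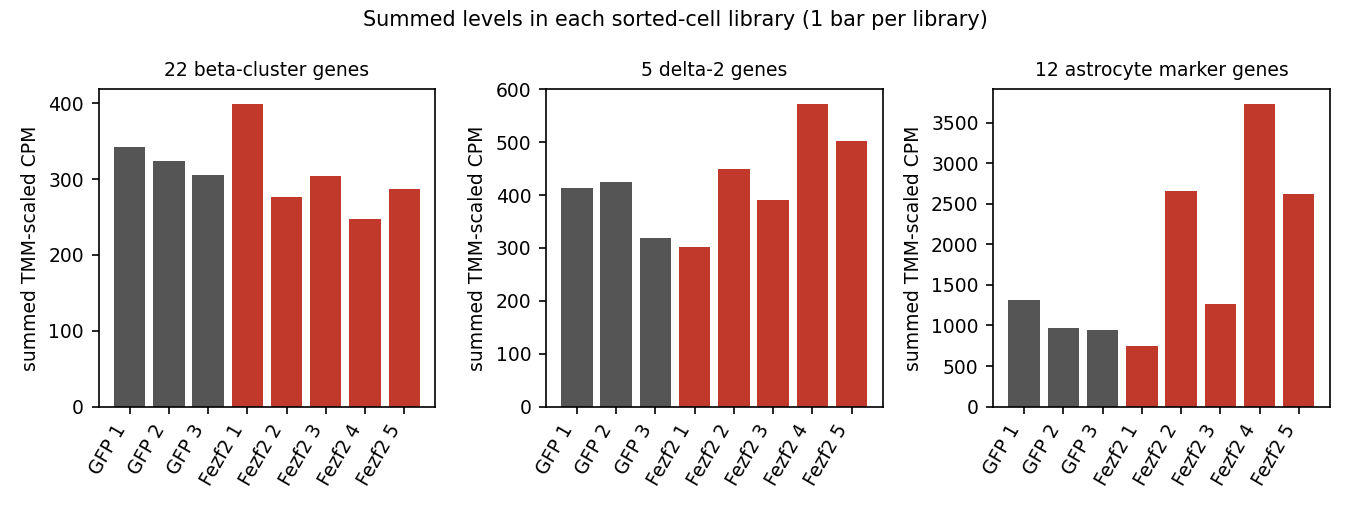
Bars are summed TMM-scaled CPM in each of the 8 sorted-cell libraries (x axis; GFP grey, Fezf2 + GFP red) for the 22 beta genes, the 5 delta-2 genes and 12 astrocyte markers. Fezf2 replicate 1 has the highest beta sum (399 CPM) and the lowest astrocyte sum (742 CPM), and Fezf2 replicate 4 the reverse (247 and 3728 CPM).

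In whole neocortex at birth, 3 single genes were lower and 1 beta gene higher by over 1.5-fold in the library labelled knockout. With 1 library on each side there is no replicate check and no test. Intervals are exact 95% binomial intervals and cover counting error only. Of 34 members with at least 1 CPM in either library, 4 (11.8%) passed 1.5-fold in either direction, against 16.4% of all 14158 genes. Of these 3 (8.82%) were lower, against 8.78% of all genes, and 1 was higher, against 7.61%. The members as a group thus stood near the background. Their median log2 ratio was −0.11, with 22 of 34 below 0, where the median of all genes was 0.01 and 49% were below 0.

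Pcdh18, Pcdh11x and Pcdh19 were the members past the limit downward. Pcdh18 had 14.1 CPM in the library labelled knockout and 24.2 CPM in wild type, a log2 ratio of −0.77 (interval −1.03 to −0.53). Pcdh11x had 17 and 26.3 CPM, a ratio of −0.63 (−0.87 to −0.40). Pcdh19 had 110 and 167 CPM, a ratio of −0.60 (−0.70 to −0.51), on 1962 and 1974 counts. Pcdhb11 at −0.58 and Pcdh10 at −0.51 (127 against 180 CPM, interval −0.59 to −0.42) fell just short of the limit, and Pcdhb6 followed at −0.49. Of the 5 delta-2 genes, 4 were below 0, with a median of −0.51. Pcdh17 was near even at −0.13 (−0.22 to −0.03), and Pcdh8 was on the other side at 0.15 (171 against 154 CPM, interval 0.07 to 0.24).

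Pcdhb4 was the member past the limit upward, at 8.29 CPM against 4.23 CPM and a log2 ratio of 0.95 (interval 0.50 to 1.46) on 148 and 50 counts. Pcdha3 stood at 0.48 (15.6 against 11.1 CPM, interval 0.19 to 0.80) and Pcdh1 at 0.38 (94.1 against 72.5 CPM, interval 0.26 to 0.50). For Pcdhb2, Pcdh12 and Pcdhb8, at 0.44, 0.43 and 0.27, the intervals held 0. Of 21 beta genes measured, 14 were below 0, with a median of −0.16, and the summed beta level was 199 CPM against 218 CPM in wild type. Delta-1 genes summed to 247 CPM in each of the 2 libraries. Pcdh9, Pcdh7, Pcdh20 and Pcdh15 had log2 ratios of −0.18, −0.09, −0.07 and 0.14. Marker lists also moved in this pair: corticothalamic genes had a median log2 ratio of −1.72, with 7 of 10 lower by over 1.5-fold, subcerebral genes, the class that Fezf2 is known to specify, a median of −0.76, with 5 of 10 lower and 2 higher, and vessel genes a median of 0.48. Their part in the protocadherin ratios was not tested.

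**Figure D5:**
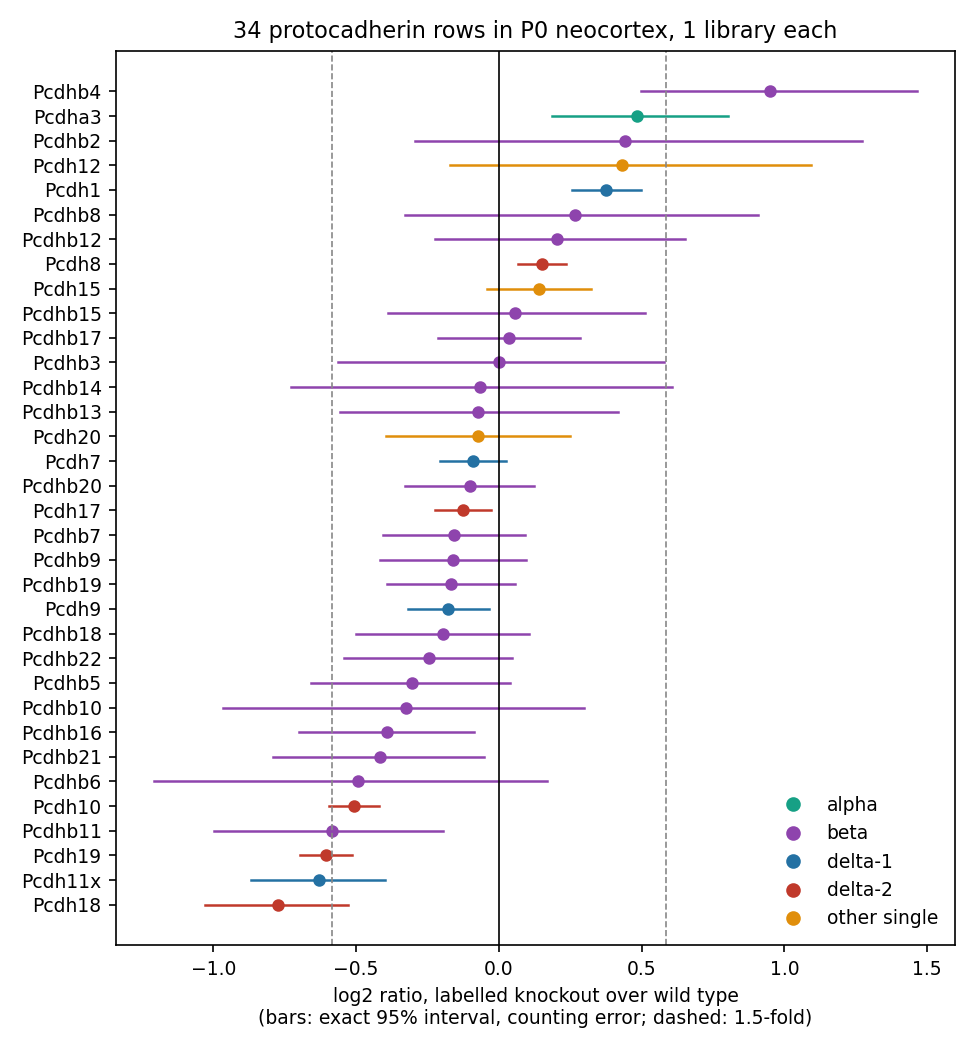
The log2 ratio of the library labelled knockout over wild type (x axis, bars are exact 95% intervals for counting error, dashed lines mark 1.5-fold) is shown for 34 protocadherin rows (y axis), coloured by group. Pcdh18, Pcdh11x and Pcdh19 lie below the lower line and Pcdhb4, at 0.95, above the upper one.

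Pcdh19 and Pcdh11x were higher on average in Fezf2 cells and lower in the library labelled knockout, with log2 values of 0.54 and −0.60 for Pcdh19 and 0.56 and −0.63 for Pcdh11x. The share of all genes with such opposite signs was not computed. In sorted cells a block by replicate number gave 0.49 for Pcdh19 and 0.39 for Pcdh11x, and the astrocyte covariate 0.44 and 0.14. Fezf2 replicates 4 and 5 have no GFP library of the same number, so this replicate block leaves them out of the comparison. They were the highest sorted-cell libraries for Pcdh10. Pcdh10 stood at 0.29 and −0.51, but its value in sorted cells turned to −0.080 with the replicate block and −0.23 with the astrocyte covariate, while Pcdh8 went the opposite way at −0.51 and 0.15. Pcdh18 was at −0.04 and −0.77. Pcdh15, at 0.43 and 0.14, and Pcdh1, at 0.22 and 0.38, were above 0 on both sides. Pcdh17 stood at 0.35 and −0.13, Pcdh9 at 0.14 and −0.18 and Pcdh20 at 0.22 and −0.07. For Pcdh7 the values were −0.05 and −0.09. Neither side is a call: the first did not pass after adjustment, and the second has 1 library a genotype.

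Genes that act with protocadherins were described from 5 lists. None of their 57 tested members passed edgeR's test after adjustment, and 2 of 57 had an unadjusted p under 0.05, Dnmt3a and Ptk2b, where 6.55% of all genes did. The 20 genes of clustered promoter choice (CTCF, cohesin and its loaders, DNA methylation) had a median log2 fold change of 0.07 in sorted cells, with 17 of 20 above 0, where 47.1% of all genes were below 0. The DNA methyltransferase gene Dnmt3a and the methylcytosine dioxygenase gene Tet1 were highest at 0.42 (SE 0.19) and 0.35 (SE 0.17). Smchd1, a repressor of the clusters, and Dnmt3b were lowest at −0.23 (SE 0.16) and −0.20 (SE 0.59), and Ctcf stood at 0.02. In the neocortex pair 3 of these 20 were lower by over 1.5-fold, the cohesin subunit gene Stag1 at −0.69, Tet2 at −0.62 and the cohesin loader gene Nipbl at −0.59, and 0 were higher, where 8.78% of all genes were lower and 7.61% higher.

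The 10 genes of the WAVE complex and Rac1 had a median of 0.09 in sorted cells, with Wasf2 and Cyfip1 highest at 0.30 and 0.25 and Brk1 and Rac1 lowest at −0.15 and −0.09, and none passed 1.5-fold in the neocortex pair. Of 15 signalling partners 14 were tested, with a median of 0.06. The focal adhesion kinase relative Ptk2b, which clustered protocadherins inhibit, was highest at 0.94 (SE 0.41, edgeR adjusted p = 0.748) on 6.10 against 11.7 CPM, followed by the protein kinase C gene Prkcb at 0.25. Ctnnb1 and Fyn were lowest at −0.19 and −0.10. Of 7 genes of the proteases that shed protocadherins 6 were tested, with Aph1a and Adam10 highest at 0.59 and 0.29 and Psen2 and Aph1b lowest at −0.46 and 0.10. Of the 9 Fat, Dachsous and Celsr cadherins 7 were tested, with Celsr1 and Fat1 highest at 0.58 and 0.29 and Fat4 and Fat3 lowest at −0.16 and −0.15.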

How the data were processed

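RNA sequencing of 8 sorted-cell and 2 neocortex libraries was used. Each library has 2 values per Ensembl gene, a raw count and an RPKM, both deposited by the authors. Tools in the submitters' processing notes are STAR 2.4.0e and HTSeq 0.6.1, with Bowtie 0.12.5 and MACS2 2.0.9 also listed, and the build is mm9. No step is tied to a tool there. The annotation, strand handling and treatment of reads shared by genes are not given in the sources used here. The deposited RPKM of the protocadherins in sorted cells followed count-based values times a factor per library (0.254 to 0.456). The 224 single values of at least 20 counts stood at 0.996 to 1.04 times that factor.

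Sorted cells were tested with edgeR 4.0.16 in R 4.3.3 (TMM factors, filterByExpr, a robust quasi-likelihood fit, p-values adjusted by Benjamini-Hochberg over all genes, limit 0.05), with 5 Fezf2 and 3 GFP libraries. The SE is the log2 fold change over the square root of F. The fits were tested on simulated data, where DESeq2 made false calls above its nominal rate, so its counts stand as an alternative alone. For the neocortex pair, log2 ratios of CPM were taken after adding a prior count of 2. DESeq2 1.42.0 and limma 3.58.1 on log2(RPKM + 0.1) were alternatives. Named were all single genes that passed a filter, the 10 members of smallest p, the 6 highest and 6 lowest in the neocortex pair, the level extremes of the beta cluster and of each pathway list, and, chosen after seeing values, Pcdhb5, Pcdhb9, Pcdhb10, Pcdhb12, Pcdhb16, Pcdhb18, Ctcf, Stag1, Tet2 and Nipbl. The members and lists were chosen with earlier results of these data known. Of 36 members 34 were named through the gene name table and 2 by the symbol in the file. The ChIP-seq peak lists were not used here. A gene of a pathway list was not matched, so 8 of the 9 Fat, Dachsous and Celsr genes had a row.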

Additional observations from a re-analysis of the deposited data

Results flagged for a closer look

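In the 5 Fezf2 libraries, 3 of 33 protocadherins had a library far from the others by Dixon's test at its 95% limit. For normally distributed values chance alone gives this in about 1 of 20 groups. The share over all genes was not computed, so the count gives no result about protocadherins. Pcdhb17 stood at 74.6 CPM in Fezf2 replicate 1, with the next library at 34 CPM. Pcdhb8 stood at 11.5 CPM in the same library, with the next at 4.62 CPM. Pcdhb7 stood at 17.7 CPM in Fezf2 replicate 2, with the next at 8.67 CPM.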

How the results depend on the processing

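Across the 17 alternatives tried in sorted cells, 0 protocadherins passed after adjustment, by edgeR, DESeq2 or limma. Of the 15 protocadherins followed by name, 10 kept the direction of their log2 fold change in all alternatives. The exceptions were Pcdh7, Pcdh10, Pcdh17, Pcdh18 and Pcdh20. Pcdhb20, Pcdhb21, Pcdhb19 and Pcdhb14 were followed for their small p in the main fit, and the alternatives draw on the same libraries. The count is thus no separate support, and the share over all genes was not computed. Pcdh7 was 0.078 with the replicate block, 0.071 and 0.058 in limma on log2(RPKM + 0.1) and log2(RPKM + 1), and 0.17 with the astrocyte marker covariate, which was chosen after seeing the data. Pcdh18 was 0.034 and 0.043 in those limma fits. Pcdh10 was −0.080 with the replicate block and −0.23 with the astrocyte covariate, and Pcdh17 was −0.082 with the latter. Leaving out 1 library at a time gave −0.21 to 0.10 for Pcdh7, −0.21 to 0.12 for Pcdh18 and −0.010 to 0.46 for Pcdh20. With no change of direction it gave 0.10 to 0.44 for Pcdh10, 0.15 to 0.50 for Pcdh17, 0.34 to 0.91 for Pcdh11x, 0.06 to 0.24 for Pcdh9, 0.29 to 0.56 for Pcdh15, −0.64 to −0.28 for Pcdhb14, −0.58 to −0.25 for Pcdhb21 and −0.43 to −0.19 for Pcdhb19. The cause of these shifts was not tested.

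Over all genes, 2 passed in the main analysis, 6 with DESeq2, 117 with no low-count filter, 6 with the replicate block, 1 with a term for high Xist, 1 in each limma fit, and 1 to 2 when a library was left out. Protocadherins at an unadjusted p under 0.05 numbered 3, and 1 in each limma fit, 1 with the astrocyte covariate and 1 to 5 when a library was left out: 1 without GFP replicate 2 or Fezf2 replicate 2 and 5 without Fezf2 replicate 3. Pcdh19, the member of smallest p in the main analysis, was among them in all 17 alternatives. These draw on the same libraries and are no separate support, and how many other genes did the same was not computed. Same-numbered libraries did not deviate together (correlations of −0.05, −0.01 and −0.05 for numbers 1 to 3). With so few libraries this cannot exclude a shared litter or batch, which the labels do not give. In the neocortex pair, a fold limit of 2 left 0 members higher and 0 lower, against 1 and 3 at 1.5-fold. Rank order of the beta genes between GFP cells and wild-type neocortex had a rho of 0.42 with the deposited RPKM. Depth limits Pcdhb1, Pcdh12, Pcdha3, Pcdhb9 and Pcdhb12, at 32 counts or fewer per sorted-cell library.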
